A study of Mus musculus with 6 samples.

Results

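Hair cells of the inner ear turn movement into current through a channel at the tips of their stereocilia, and 7 genes that encode the core of this machinery were described here in the newborn cochlea and vestibule. They were taken by name from what is known of the machinery, with earlier results of these data known: Tmc1 and Tmc2, whose proteins form the channel pore, Lhfpl5, Tmie and Cib2, whose proteins assemble with the pore, and Pcdh15 and Cdh23, whose proteins form the tip link. All 7 were found among the 39179 genes of the count files. All 7 were also among the 14723 genes with at least 1 CPM (a count scaled to the summed counts on genes) in 3 or more of the 6 libraries, the genes that were tested, and 0 members fell under 1 CPM in any library.

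The study sequenced mRNA of the sensory epithelium, the sheet of hair cells with its supporting cells, from the cochlea, the hearing organ, and from the vestibule, the balance organ. The cochlear group holds 3 libraries and the vestibular group 3, all from wild-type C57Bl/6J mice at P0 (newborn), with males and females pooled and with no treatment or altered allele named for either group. According to the labels each library came from pooled tissue of at least 20 cochleae or 20 vestibules. The design text, by contrast, describes 1 dissection of 20 inner ears. The 3 libraries of a tissue may thus share their animals, with each other and with those of the other tissue. P-values then measure only the spread between these libraries, which may be technical. Counts on genes ran from 24464483 to 29225105 per cochlear library and from 25476572 to 33664793 per vestibular library, so that 1 CPM stood for 24.5 to 33.7 counts.

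In the mature bundle a tip link runs from the tip of each stereocilium to the side of its taller neighbour. Cadherin 23 forms the upper part of the link and protocadherin 15 the lower part, which is anchored at the channel, so that deflection of the bundle pulls the channel open. TMC2 is known as the earlier and, in the cochlea, transient pore protein, and TMC1 as the one that persists in mature cochlear hair cells. LHFPL5 and TMIE bind protocadherin 15 and the TMC proteins, and CIB2 is a calcium-binding protein that binds the TMC proteins. Mutations in most of these genes cause hereditary deafness.

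Tmc1 and Tmc2 are paralogues, as are Cib2 and its relative Cib3, and each pair is compared below, so a stretch of each coding sequence is shown to let their likeness be seen. In GENCODE vM21 on GRCm38, the coding sequences of Tmc1 (transcript Tmc1-201, 2274 bases) and Tmc2 (Tmc2-201, 2667 bases) were identical at 67.6% of 2237 aligned bases, and the longest run they shared was 22 bases. Cib2 (Cib2-201, 564 bases) and Cib3 (Cib3-201, 483 bases) were identical at 66.6% of 479 aligned bases, with a longest shared run of 17 bases. Reads were 100 bases long, so no read within the coding sequence could be placed equally well on both genes of a pair without mismatches. Below are the 60-base windows of greatest likeness, 5′ to 3′, with capitals at the bases that differ within a pair. They lie at coding bases 1708 to 1767 of Tmc1, 1840 to 1899 of Tmc2, 310 to 369 of Cib2 and 229 to 288 of Cib3. Within them 9 of 60 bases differed between Tmc1 and Tmc2 and 8 of 60 between Cib2 and Cib3.
Tmc1: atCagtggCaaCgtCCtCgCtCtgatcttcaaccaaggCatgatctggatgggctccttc
Tmc2: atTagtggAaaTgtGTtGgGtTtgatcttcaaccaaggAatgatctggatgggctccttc
Cib2: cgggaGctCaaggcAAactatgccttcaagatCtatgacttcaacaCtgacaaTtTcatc
Cib3: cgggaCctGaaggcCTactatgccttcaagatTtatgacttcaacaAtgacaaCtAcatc

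Of the 7 genes, Tmc1, Tmc2 and Tmie were higher in the vestibule, Cib2 was higher in the cochlea, and Lhfpl5, Pcdh15 and Cdh23 were not called (edgeR's quasi-likelihood test, Benjamini-Hochberg adjusted at an FDR of 0.05). Over all genes tested, 27.4% were called, 15.8% as up in the vestibule and 11.6% as up in the cochlea. The libraries of the 2 tissues did not overlap in CPM for 4 of the 7 genes, beside 41.8% of all genes tested. The median log2 fold change of the 7, vestibule minus cochlea, was 0.04, and the median of its absolute value was 0.60, beside 0.0048 and 0.32 over all genes tested. The genes of the pore, the accessory subunits and the link therefore did not share 1 direction. In whole tissue, fewer cells of a type and less RNA per cell cannot be told apart, and this holds for each difference below.

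**Figure D1:**
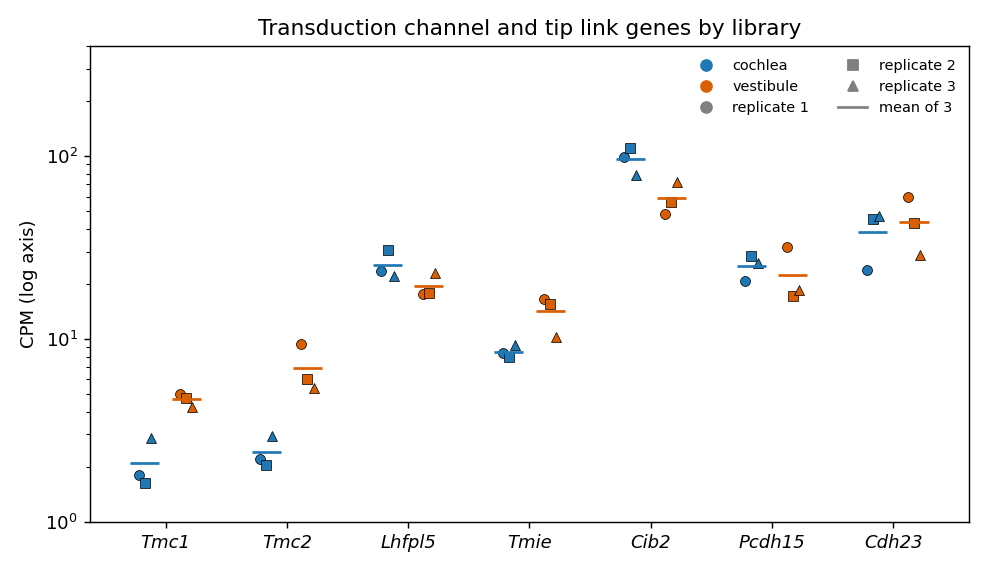
CPM of the 7 genes in each of the 6 libraries on a log axis, with cochlear libraries in blue, vestibular libraries in orange, a symbol for each replicate number and a bar at the mean of 3. All vestibular points lie above all cochlear points for Tmc1, Tmc2 and Tmie and below them for Cib2, while the points of Lhfpl5, Pcdh15 and Cdh23 overlap.

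Tmc1 (ENSMUSG00000024749, chr19:20783458-20954202 of GRCm38, minus strand) encodes the pore protein that persists in mature cochlear hair cells. It had 44, 47 and 84 counts in cochlea replicates 1, 2 and 3, which is 1.80, 1.63 and 2.87 CPM. In vestibule replicates 1, 2 and 3 it had 169, 122 and 108 counts, which is 5.02, 4.75 and 4.24 CPM. Every vestibular library was above every cochlear one, with cochlea replicate 3 the highest of its tissue. The mean was 2.10 ± 0.674 CPM (SD, n = 3) in cochlear and 4.67 ± 0.397 in vestibular libraries, and the fitted log2 fold change was 1.03 (standard error, SE, 0.25, adjusted p = 0.0161 by edgeR's quasi-likelihood test, Benjamini-Hochberg adjusted), or 2.04-fold. The gene was among the lowest of the 7 in counts, and its call was lost without cochlea replicate 1, cochlea replicate 2 or vestibule replicate 2 (adjusted p = 0.0599, 0.0659 and 0.0567 by the same edgeR test).

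Tmc2 (ENSMUSG00000060332, chr2:130195194-130264445, plus strand), the pore gene of early hair cells, had 54, 59 and 86 counts in the cochlea, which is 2.21, 2.05 and 2.94 CPM. In the vestibular libraries it had 315, 154 and 138 counts, which is 9.36, 6.00 and 5.42 CPM. The tissues did not overlap, and vestibule replicate 1 stood above the other 2 vestibular libraries. With means of 2.40 ± 0.477 CPM (SD, n = 3) and 6.92 ± 2.13, its log2 fold change of 1.40 (SE 0.26, adjusted p = 0.00397 by edgeR's quasi-likelihood test, Benjamini-Hochberg adjusted), or 2.64-fold, was the largest of the 7. Tmc2 was the 1 gene of the 7 that stayed past the threshold under all 14 alternatives tried, which gave log2 fold changes from 0.85 to 1.56.

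Levels of the 2 pore genes can be set side by side only per length of transcript. The ratio of Tmc2 to Tmc1 in RPKM (CPM per kilobase of exon) was 1.55, 1.59 and 1.30 in the cochlear libraries and 2.36, 1.60 and 1.62 in the vestibular ones. Tmc2 was thus the higher of the pair in all 6 libraries, at 56.5% to 61.4% of the summed level in the cochlea and at 61.5% to 70.2% in the vestibule. The mean ratio was 1.48 ± 0.160 (SD, n = 3) in cochlear and 1.86 ± 0.434 in vestibular libraries. All 3 cochlear ratios lay below the 3 vestibular ones, by a narrow margin between the nearest libraries. A two-sided exact permutation test of the log2 ratios gave p = 0.1, the smallest that 3 libraries against 3 allow, and 0.15 after Benjamini-Hochberg adjustment over the 3 pairs of genes compared here, so this test could not pass the threshold whatever the values, and it leaves the difference in the balance of the pair undecided. The size of the ratio depends on the exon lengths in the authors' matrix, 4055 bases for Tmc1 and 3203 for Tmc2. With the exonic bases of GENCODE vM21, 7190 and 3216, it was 2.74, 2.81 and 2.29 in the cochlear libraries and 4.17, 2.82 and 2.86 in the vestibular ones.

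Among the genes whose products assemble with the pore, Tmie was higher in the vestibule, Cib2 was higher in the cochlea, and Lhfpl5 was not called. Tmie (ENSMUSG00000049555, chr9:110865711-110880113, minus strand) encodes a small membrane protein of the channel complex. It had 204, 229 and 271 counts in the cochlea, which is 8.34, 7.95 and 9.27 CPM, and 559, 397 and 262 in the vestibule, which is 16.6, 15.5 and 10.3 CPM. The tissues did not overlap, but vestibule replicate 3 lay nearer to the cochlear libraries than to the other vestibular ones. The mean was 8.52 ± 0.680 CPM (SD, n = 3) in cochlear and 14.1 ± 3.37 in vestibular libraries, with a log2 fold change of 0.60 (SE 0.19, adjusted p = 0.0471 by edgeR's quasi-likelihood test, Benjamini-Hochberg adjusted), or 1.52-fold. This call lay close to the threshold and was lost under 9 of 14 alternatives, 5 of them the removal of a single library (each but vestibule replicate 3), where the adjusted p of the same edgeR test was 0.128 without cochlea replicate 1, 0.128 without cochlea replicate 2, 0.0562 without cochlea replicate 3, 0.150 without vestibule replicate 1 and 0.177 without vestibule replicate 2. In GENCODE vM21, 7.89% of the exonic bases of Tmie also lie in exons of Als2cl on the opposite strand, and whether reads were counted by strand is not given in the sources used here.

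Cib2 (ENSMUSG00000037493, chr9:54544794-54560218, minus strand), which encodes the calcium- and integrin-binding protein of the channel complex, had 2431, 3202 and 2303 counts in the cochlea, which is 99.4, 111 and 78.8 CPM. In the vestibular libraries it had 1620, 1437 and 1832 counts, which is 48.1, 56.0 and 71.9 CPM. The lowest cochlear library, replicate 3, lay just above the highest vestibular one, also replicate 3. The mean was 96.4 ± 16.4 CPM (SD, n = 3) in cochlear and 58.7 ± 12.1 in vestibular libraries, and the log2 fold change was -0.83 (SE 0.21, adjusted p = 0.0204 by edgeR's quasi-likelihood test, Benjamini-Hochberg adjusted), a level 1.78-fold higher in the cochlea. The call was lost without cochlea replicate 1, cochlea replicate 2, vestibule replicate 1 or vestibule replicate 2 (adjusted p = 0.0526, 0.0856, 0.0702 and 0.0902 by the same edgeR test). Of its exonic bases 15.8% are shared with Sh2d7 on the opposite strand.

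Lhfpl5 (ENSMUSG00000062252, chr17:28575641-28585679, plus strand) encodes a membrane protein that links protocadherin 15 to the channel. It had 575, 887 and 643 counts in the cochlea, which is 23.5, 30.8 and 22.0 CPM, and 591, 458 and 583 in the vestibule, which is 17.6, 17.8 and 22.9 CPM. Vestibule replicate 3 lay above cochlea replicate 3, so the tissues overlapped. The mean was 25.4 ± 4.70 CPM (SD, n = 3) in cochlear and 19.4 ± 3.00 in vestibular libraries, and the log2 fold change was -0.51 (SE 0.21, adjusted p = 0.104 by edgeR's quasi-likelihood test, Benjamini-Hochberg adjusted). With 1 library left out the value ran from -0.67 without vestibule replicate 3, the library that overlapped (adjusted p = 0.0499 by the same edgeR test), to -0.42 without vestibule replicate 2 (adjusted p = 0.324 by edgeR), -0.39 without vestibule replicate 1 (adjusted p = 0.292 by edgeR) and -0.32 without cochlea replicate 2 (adjusted p = 0.323 by edgeR).

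Neither tip link gene was called. In both, cochlea replicate 1 was the lowest library of its tissue and vestibule replicate 1 the highest. Pcdh15 (ENSMUSG00000052613, chr10:73099342-74649737, plus strand), the lower part of the link, had 505, 818 and 756 counts in the cochlea, which is 20.6, 28.4 and 25.9 CPM, and 1069, 443 and 470 in the vestibule, which is 31.8, 17.2 and 18.4 CPM. Vestibule replicate 1 was the highest of all 6 libraries and the other 2 vestibular libraries were the lowest. The mean was 25.0 ± 3.96 CPM (SD, n = 3) in cochlear and 22.5 ± 8.05 in vestibular libraries, with a log2 fold change of -0.28 (SE 0.24, adjusted p = 0.418 by edgeR's quasi-likelihood test, Benjamini-Hochberg adjusted). Single libraries moved this value, to -0.56 without vestibule replicate 1 (adjusted p = 0.0914 by edgeR) and to -0.10 without vestibule replicate 2 (adjusted p = 0.838 by edgeR).

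Cdh23 (ENSMUSG00000012819, chr10:60302748-60696490, minus strand), the upper part of the link, had 582, 1296 and 1372 counts in the cochlea, which is 23.8, 45.0 and 46.9 CPM, and 2011, 1107 and 728 in the vestibule, which is 59.7, 43.1 and 28.6 CPM. Cochlea replicate 1 was the lowest library and vestibule replicate 1 the highest, with the other 4 between them. The mean was 38.6 ± 12.8 CPM (SD, n = 3) in cochlear and 43.8 ± 15.6 in vestibular libraries. The log2 fold change was 0.04 (SE 0.30, adjusted p = 0.931 by edgeR's quasi-likelihood test, Benjamini-Hochberg adjusted), and it turned to -0.22 without cochlea replicate 1 and to -0.19 without vestibule replicate 1. The SD between replicates of this gene exceeded the difference between the means of the tissues. The position of these 2 libraries was not peculiar to the tip link. Over all genes tested, cochlea replicate 1 was the lowest of its tissue and vestibule replicate 1 the highest of its tissue, both at once, in 16.9%. The same held for 2 of the 7 members (28.6%), Pcdh15 and Cdh23, and for 3 of the 17 tested hair cell markers (17.6%). Among the 17 other transduction genes described below it held for 9 (52.9%), a larger share than of all genes. Cochlea replicate 1 by itself was lowest in 27.8% of all genes, 28.6% of members, 70.6% of these other transduction genes and 58.8% of hair cell markers. Vestibule replicate 1 by itself was highest in 48.8%, 71.4%, 76.5% and 29.4%, in the same order.

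Per length, the ratio of Cdh23 to Pcdh15 was 1.26, 1.73 and 1.98 in the cochlear libraries and 2.05, 2.72 and 1.69 in the vestibular ones. Cdh23 was the higher of the pair in each library, and the ranges of the tissues overlapped (two-sided exact permutation test of the log2 ratios, p = 0.3). The exon lengths used were 16905 bases for Cdh23 and 18413 for Pcdh15, where GENCODE vM21 gives 16939 and 23773 exonic bases.

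**Figure D2:**
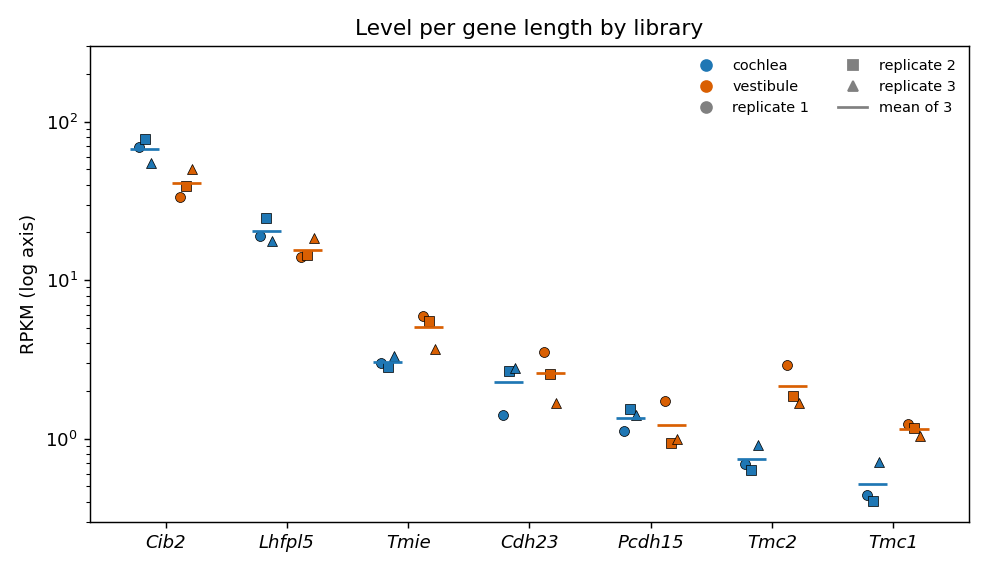
RPKM of the 7 genes in each library on a log axis, ordered by their mean in the cochlea, with tissues by colour, replicate numbers by symbol and bars at the mean of 3. Cib2 and Lhfpl5 stand above the other 5 in both tissues, and Tmc1 has the lowest mean in both.

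On the RPKM scale the order of the levels was almost the same in both tissues. In the cochlea Cib2 was highest at 67.4 ± 11.5 (SD, n = 3), before Lhfpl5 at 20.4 ± 3.78 and Tmie at 3.05 ± 0.243, and these 3 did not overlap with their neighbours in the order. Cdh23 at 2.28 ± 0.760 and Pcdh15 at 1.36 ± 0.215 overlapped with each other but not with the pore genes below them. Tmc2 at 0.749 ± 0.149 and Tmc1 at 0.518 ± 0.166 overlapped with each other. In the vestibule Cib2 at 41.0 ± 8.48, Lhfpl5 at 15.6 ± 2.41 and Tmie at 5.05 ± 1.20 again held the first places without overlap. The 4 genes after them, Cdh23 at 2.59 ± 0.922, Tmc2 at 2.16 ± 0.664, Pcdh15 at 1.22 ± 0.437 and Tmc1 at 1.15 ± 0.0978, each overlapped with the next. Tmc2 thus stood before Pcdh15 in the vestibule and after it in the cochlea, with libraries that overlapped in the vestibule on these lengths. In both tissues mRNA of the pore genes was scarcer per length than that of Cib2 and Lhfpl5. With the exonic bases of GENCODE vM21 the order by means was the same in each tissue, with Lhfpl5 at 10.7 in the cochlea and 8.13 in the vestibule, but the overlaps changed in both directions. Tmie and Cdh23 then overlapped in both tissues and Pcdh15 and Tmc2 in the cochlea, while Cdh23 and Pcdh15 in the cochlea, Tmc2 and Tmc1 in the cochlea, Tmc2 and Pcdh15 in the vestibule, and Pcdh15 and Tmc1 in the vestibule no longer did.

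The members are known for their part in hair cell transduction, so hair cell markers were read beside them. The cells that carried the mRNA of each member were not identified in this whole tissue. Shares of marker CPM given below are therefore not levels per hair cell. Of 18 hair cell markers, 17 were tested, 9 were up in the vestibule, 3 were up in the cochlea and 5 were not called. Their median log2 fold change was 0.55. Of all genes tested, 15.8% were up in the vestibule and 11.6% up in the cochlea. Cabp2 was at 0 counts in all 6 libraries. The summed level of the list was 835 to 912 CPM in the cochlear libraries and 1303 to 1563 CPM in the vestibular ones, without overlap. Of the difference of 513 CPM between the means, Otof, the calcium sensor of the ribbon synapse, carried 306 CPM. Without it the sums were 781 to 816 CPM and 971 to 1033 CPM, and the ratio of the means was 1.26 in place of 1.58. The markers did not move as 1 block. Gfi1, a hair cell transcription factor, had a log2 fold change of 2.19, and Otof one of 2.08. Atoh1, the factor that starts hair cell development, stood at -0.07, and Myo6, an unconventional myosin with the most counts of the list in the cochlea, at -0.35. The 3 markers with the largest change were Ocm at 6.00, Slc17a8 at 3.68 and Pvalb at -2.39. Ocm was under 1 CPM in every cochlear library and entered the test only through the vestibule, where it was high. Calb2 and Pvalb are also known from neurons of the inner ear.

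Scaling each library to the summed counts of these markers moved each of the 7 log2 fold changes by -0.55 to -0.53, and the median of all genes tested to -0.53. The calls gained and lost under it follow that common shift towards the cochlea and set no member apart from other genes. On this scale 52.3% of all genes were called up in the cochlea beside 8.69% called up in the vestibule. Relative to the hair cell markers, Tmc2 was called higher in the vestibule at 0.85 (adjusted p = 0.0150 by edgeR's quasi-likelihood test, Benjamini-Hochberg adjusted, as for the other values of this scaling). Tmc1 at 0.50 (adjusted p = 0.138) and Tmie at 0.06 (adjusted p = 0.817) were not called by edgeR on this scale. Cib2 at -1.36 (adjusted p = 0.000342), Lhfpl5 at -1.04 (adjusted p = 0.00153) and Pcdh15 at -0.83 (adjusted p = 0.00463) were called higher in the cochlea by the same test. Cdh23 stood at -0.48 (adjusted p = 0.108 by edgeR). The sums behind this scaling had a ratio of means of 1.58, vestibule to cochlea, or 1.26 without Otof. Scaling without Otof was not tried, so whether these calls depend on it was not tested. As a share of the summed marker CPM, Tmc2 was 0.264%, 0.228% and 0.323% in cochlear and 0.599%, 0.460% and 0.412% in vestibular libraries. Cib2 was 11.9%, 12.4% and 8.64% in cochlear and 3.08%, 4.29% and 5.46% in vestibular libraries. Tmie, by contrast, lay between 0.886% and 1.02% in cochlear and between 0.782% and 1.19% in vestibular libraries, so that its ranges overlapped. The part of the amount of hair cell RNA in each difference was not tested.

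**Figure D3:**
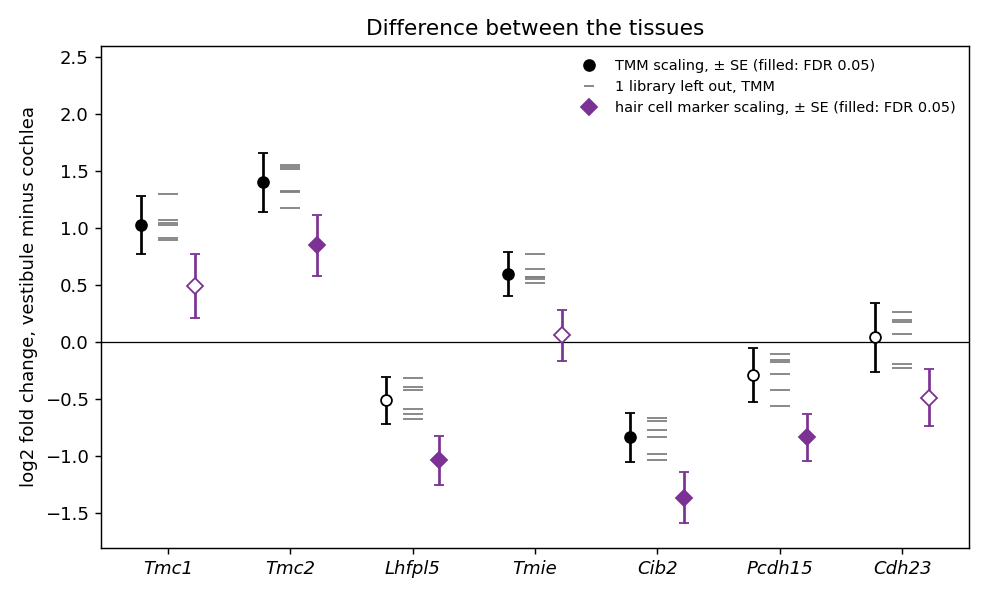
Log2 fold change, vestibule minus cochlea, of each gene with its SE after TMM scaling (black), with 1 library left out (grey dashes) and after scaling to the summed hair cell markers (purple diamonds), where filled symbols passed an FDR of 0.05. Tmc2 stays above 0 and Cib2 below 0 throughout, while the grey dashes of Cdh23 lie on both sides of 0.

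Markers of other cell types also differed between the tissues, and their part in these results was not tested. The shares to set beside these lists are 15.8% of all genes tested called up in the vestibule and 11.6% up in the cochlea. Among 12 supporting cell markers 7 were higher in the cochlea and 1 higher in the vestibule, with summed levels of 2131 to 2459 CPM against 1429 to 1540 CPM. Among 8 neuron markers 5 were higher in the cochlea and 0 higher in the vestibule, at 292 to 668 CPM against 176 to 388 CPM. In the other direction, 5 of 5 macrophage markers were up in the vestibule, at 73.1 to 84.8 CPM in cochlear and 291 to 332 CPM in vestibular libraries, and so were 3 of 4 endothelial markers, at 55.1 to 84.6 CPM and 322 to 457 CPM. For mesenchyme, cartilage and bone 5 of 8 and for Schwann cells 2 of 6 were up in the vestibule, with 0 up in the cochlea in both lists. Their sums were 12060 to 18711 CPM against 16575 to 20000 CPM and 672 to 783 CPM against 1095 to 1342 CPM. The ranges of the first list overlapped. Most of its sum was Col2a1, which was not called, with means of 11385 CPM in cochlear and 10454 CPM in vestibular libraries. None of the tested markers of skeletal muscle (3) or of red blood cells (3) was called by edgeR. Summed muscle markers ran from 3.02 to 232 CPM in the cochlear libraries and from 6.40 to 22.2 CPM in the vestibular ones, and red blood cell markers from 112 to 297 CPM and from 161 to 242 CPM. In these lists no marker was at 0 counts in all libraries.

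Among the closest relatives of the channel genes, Cib3 was higher in the vestibule, the direction opposite to that of Cib2. Cib3 (ENSMUSG00000074240, chr8:72204335-72212837, minus strand) encodes another calcium- and integrin-binding protein, known to act with CIB2 in vestibular hair cells. It had 2, 2 and 3 counts in the cochlear libraries and 379, 296 and 348 in the vestibular ones, which is 0.08, 0.07 and 0.10 CPM against 11.3, 11.5 and 13.7 CPM. It was close to absent from the counts of the cochlea, under 1 CPM in each library there, and entered the test only through the vestibule. Summed over libraries, 7 cochlear and 1023 vestibular counts gave a ratio of 142 in CPM, with an exact 95% interval of 68.7 to 354 that covers counting error only, and the gene passed the test (adjusted p = 3.79e-06 by edgeR's quasi-likelihood test, Benjamini-Hochberg adjusted). Per length, Cib3 was 0.182%, 0.138% and 0.288% of the summed level of Cib2 and Cib3 in the cochlear libraries and 34.2%, 31.4% and 29.7% in the vestibular ones. These shares rest on an exon length of 644 bases for Cib3 in the authors' matrix, where GENCODE vM21 gives 2014 exonic bases. With the exonic bases of GENCODE vM21 for both genes the mean vestibular share was 13.0%, and from counts alone it was 17.3%, in place of 31.7%. The mean cochlear share was 0.203%, or 0.0652% and 0.0916% by these other measures, so in the cochlea nearly all mRNA of the pair was Cib2 by each of the 3.

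**Figure D4:**
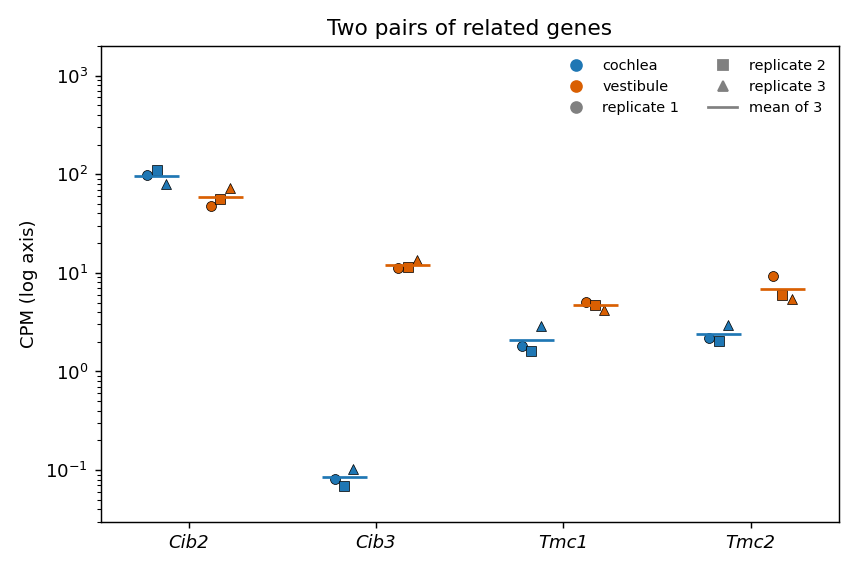
CPM of Cib2 and Cib3 and of Tmc1 and Tmc2 in each library on a log axis, with tissues by colour, replicate numbers by symbol and bars at the mean of 3. Cib3 lies at about 0.1 CPM in cochlear and above 11 CPM in vestibular libraries, a far wider gap than for the other 3 genes.

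Of 14 listed relatives in the TMC, LHFPL and CIB families 13 were matched and 10 tested. Among the tested relatives 4 were up in the vestibule, 3 were up in the cochlea and 3 were not called. Beside them, 15.8% and 11.6% of all genes tested were called in these directions. The median log2 fold change of the relatives was 0.20. The largest changes after Cib3 were in TMC genes outside the hair cell pore. Tmc5 was at 4.29, 3.78 and 7.12 CPM in cochlear and at 0.802, 0.623 and 0.196 CPM in vestibular libraries, with a log2 fold change of -3.32 (adjusted p = 0.000598 by edgeR's quasi-likelihood test, Benjamini-Hochberg adjusted). Tmc4 went the other way, with 78, 144 and 201 counts in the cochlear libraries and 698, 441 and 432 in the vestibular ones, a log2 fold change of 1.74 (adjusted p = 0.00141 by the same edgeR test). Neither gene overlapped between the tissues. Tmc5 was under 1 CPM in every vestibular library, so it entered the test only through the tissue where it was high. Tmc8, Lhfpl1 and Cib4 were too low to be tested, and Cib4 had at most 2 counts in a library.

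A list of 17 further genes of the transduction apparatus gave the surroundings of the 7. All 17 were tested, and 6 were up in the vestibule, 2 were up in the cochlea and 9 were not called. The shares of all genes tested were 15.8% up in the vestibule and 11.6% up in the cochlea. The median log2 fold change of the list was 0.63. Ush1c, which encodes harmonin, a scaffold at the upper end of the tip link that binds cadherin 23, had 27.2, 37.7 and 50.6 CPM in cochlear and 254, 217 and 180 CPM in vestibular libraries. Its log2 fold change was 2.37 (SE 0.23, adjusted p = 0.000116 by edgeR's quasi-likelihood test, Benjamini-Hochberg adjusted), and the difference between it and Cdh23, which was not called, was not tested. The reverse pattern was that of Pkhd1l1, which encodes a large protein of the stereocilia coat, at 15.5, 21.9 and 17.8 CPM in cochlear and 0.832, 0.935 and 0.314 CPM in vestibular libraries, a log2 fold change of -4.85 (adjusted p = 2.32e-05 by the same edgeR test). Myo3a, a myosin of stereocilia tips, had 6.38, 5.80 and 8.21 CPM in cochlear and 2.38, 1.71 and 1.73 CPM in vestibular libraries, a log2 fold change of -1.92 (adjusted p = 0.000388 by the same edgeR test). The tissues did not overlap for any of these 3 genes. Pkhd1l1 was under 1 CPM in every vestibular library and entered the test only through the cochlea.

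The other 5 genes up in the vestibule were Loxhd1 (log2 fold change 1.75, adjusted p = 0.0455 by edgeR), Whrn (1.44, 0.0234), Myo1c (1.04, 0.000327), Piezo1 (0.95, 0.00509) and Tomt (0.85, 0.0411). For Loxhd1, with 12.7 CPM in cochlea replicate 3 and 10.5 CPM in vestibule replicate 3, and for Whrn, with 14.9 and 14.4 CPM in the same libraries, the tissues overlapped, and for the other 3 they did not. Tomt encodes a protein needed to bring TMC proteins to the bundle, and it had the direction of both pore genes. Myo1c encodes a motor known for channel adaptation. Myo7a, a motor known to place the upper tip link complex, stood at 0.57 (adjusted p = 0.157 by edgeR) and Ush1g, its scaffold partner, at 0.15 (adjusted p = 0.782 by edgeR), so neither was called.

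**Figure D5:**
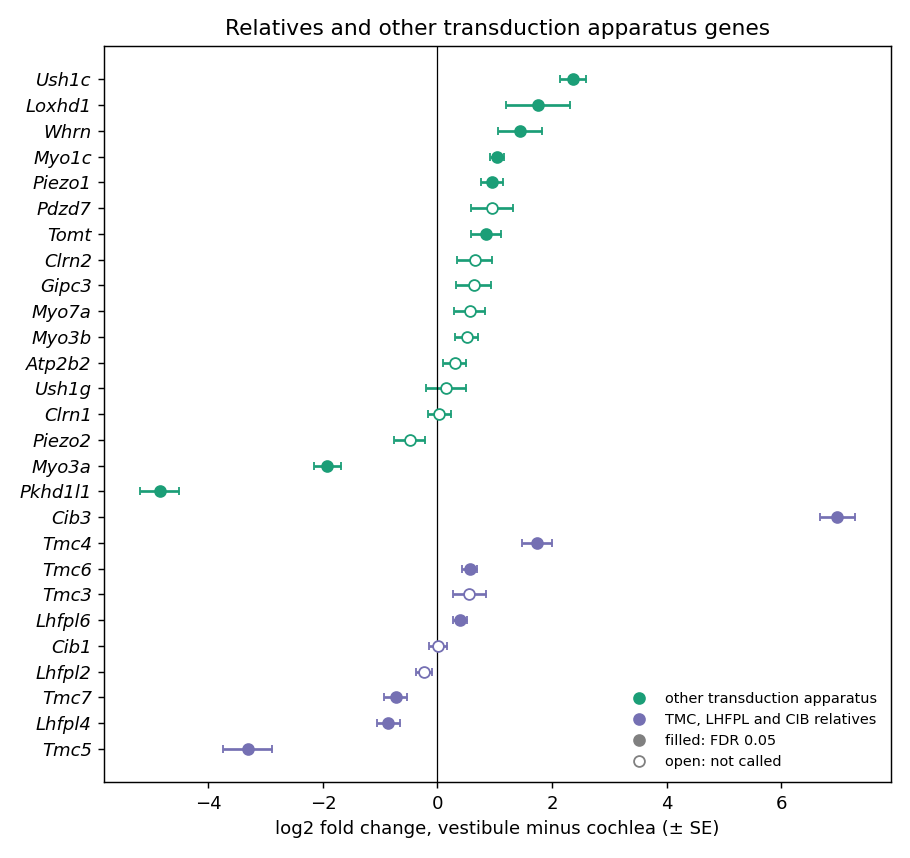
Log2 fold change, vestibule minus cochlea, with its SE for the 17 tested apparatus genes (green) and the 10 tested relatives (violet), where filled points passed an FDR of 0.05. Both lists hold filled points on either side of 0, with Pkhd1l1 at -4.85 and Cib3 at 6.98 the farthest out.

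The genes whose log2 CPM followed each member most closely are given as a description, since the 6 points share their tissues and libraries. The closest gene by Pearson's r over the 6 libraries was Tbx3os2 for Tmc1 (0.999), Ptprm for Tmc2 (0.9973), Sephs2 for Lhfpl5 (0.9954), Tbc1d4 for Tmie (0.9959), Impdh2-ps for Cib2 (0.9977), Ankfy1 for Pcdh15 (0.9757) and Rreb1 for Cdh23 (0.9973). The next was ENSMUSG00000078667 for Tmc1 (0.9984), Slfn5 for Tmc2 (0.9967), Ces1d for Lhfpl5 (0.9931), Rgs14 for Tmie (0.993), Kctd5 for Cib2 (0.9973) and Gak for Cdh23 (0.9921). Such values are common with 6 points in 2 groups. An r over 0.95 was reached by 452 genes with Tmc1, 529 with Tmc2, 477 with Cib2, 166 with Tmie and 108 with Lhfpl5. For the tip link genes, which did not separate the tissues, 61 genes reached it with Cdh23 and 12 with Pcdh15.

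The start sites of the members differed in base composition. RefSeq promoter windows on GRCm38.p6, from 250 bases before to 50 after the start, were matched for 6 of the 7 genes, all but Tmc2. GC content was 42.0% for Tmc1, 50.7% for Pcdh15, 54.0% for Cdh23, 70.7% for Lhfpl5, 71.3% for Cib2 and 73.7% for Tmie, beside a median of 52.7% over 32851 windows. The 3 genes of the accessory proteins thus lay above 91.4% or more of all windows, and Tmc1 above 14.1%. The windows were searched on both strands for CAGCTG and CAGATG, 2 E-boxes of the kind bound by basic helix-loop-helix factors, and for TATAAA, and a given stretch of 6 bases can match only 1 of the 3. CAGCTG was found in the windows of Lhfpl5, Tmie and Pcdh15 and in 16.3% of all windows, TATAAA in that of Pcdh15 and in 13.6% of all, and CAGATG in 0 of the 6 and in 17.15% of all. A match is a description of letters and not a binding site. The parts before the start are shown for Tmc1 (chr19:20954203-20954452, minus strand), Cib2 (chr9:54560219-54560440, minus strand) and Pcdh15 (chr10:73821617-73821866, plus strand). That of Cib2 stops after 222 bases, at an annotated exon. Tmc1 and Cib2, 2 members called in opposite directions, hold none of the 3 motifs and so no capitals. Tmie, called in the same direction as Tmc1, had the highest GC content of the 6. In the part of Pcdh15 TATAAA is in capitals, and its CAGCTG lies outside the printed part. This RefSeq start of Pcdh15 lies inside the span that GENCODE vM21 gives the gene, which begins further upstream.
Tmc1: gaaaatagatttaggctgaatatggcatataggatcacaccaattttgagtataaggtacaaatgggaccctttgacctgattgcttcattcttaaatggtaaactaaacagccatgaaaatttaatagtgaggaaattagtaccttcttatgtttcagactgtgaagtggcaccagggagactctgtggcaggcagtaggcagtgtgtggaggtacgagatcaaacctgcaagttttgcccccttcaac
Cib2: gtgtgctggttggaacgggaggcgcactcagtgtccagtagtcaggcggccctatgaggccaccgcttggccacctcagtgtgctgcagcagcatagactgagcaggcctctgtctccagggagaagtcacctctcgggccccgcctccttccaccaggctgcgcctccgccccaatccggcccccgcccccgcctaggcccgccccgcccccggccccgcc
Pcdh15: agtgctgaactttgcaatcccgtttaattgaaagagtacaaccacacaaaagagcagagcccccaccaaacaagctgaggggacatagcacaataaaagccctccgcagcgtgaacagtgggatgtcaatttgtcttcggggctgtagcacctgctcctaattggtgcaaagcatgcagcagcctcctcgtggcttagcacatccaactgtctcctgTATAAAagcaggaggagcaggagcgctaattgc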

How the data were processed

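RNA of the sensory epithelium was sequenced by the authors from 3 cochlear and 3 vestibular libraries with a stranded mRNA kit. Per the labels and the methods, reads were aligned with TopHat2 2.1.0 to GRCm38 with Ensembl annotation, handled with SAMtools 0.1.18 and counted per gene with HTSeq 0.5.4p5, and the authors deposited these counts without normalization. The 5 summary lines of each count file, 18.5% to 20.6% of the listed counts, stayed out of library sizes and tests. The authors also deposited log2 RPKM values made with edgeR 3.4.2, used here only to recover each gene's exon length. Whether counting used strand is not given in the sources used here.

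The filter was 1 CPM or more in 3 libraries. The test was the quasi-likelihood test of edgeR 4.0.16 in R 4.3.3, with TMM factors and without a replicate block, with Benjamini-Hochberg adjustment over all genes tested and an FDR of 0.05. Fold changes are vestibule minus cochlea, and SEs are the log2 fold change over the square root of the F statistic. The test was also run on simulated data, whose outcome is not given here. Alternatives used DESeq2 1.42.0, limma-voom (limma 3.58.1), other scalings and filters, a replicate block, and each library left out in turn. Same-numbered libraries of the tissues did not deviate together (r of -0.175, -0.260 and -0.475). Libraries with different numbers gave r from -0.270 to 0.406. Deviations from a mean of 3 libraries cannot decide whether the numbers pair the libraries, and the labels do not say so. The log2 CPM for likeness used a prior count of 0.5. Sequences were aligned with Biopython 1.88, and figures made in matplotlib 3.10.9 under Python 3.11.15.

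The 7 members and all lists were chosen with earlier results of these data known. Named were the 7 members, from the relatives, the other apparatus and the hair cell list the 3 genes with the largest change past the FDR, and for each member the 2 genes with the highest r. Of these, 1 gene is not reported here. Lists of other cell types are given by counts and sums, with Col2a1 named beside the sum that it dominates. Other genes of the lists were named after their values were seen. Lhfpl3 was not matched to an identifier. Gene positions come from GENCODE vM21 on GRCm38, a later release than the annotation used for counting. With 3 libraries a tissue, single outlying libraries were not tested for.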

Additional observations from a re-analysis of the deposited data

How the results depend on the processing

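With 3 members up in the vestibule and 1 up in the cochlea, DESeq2, no TMM, upper-quartile scaling, limma-voom and both other filters gave 2 or 3 and 1, among 1791 to 2798 and 1251 to 2033 of all genes. Scaled to the summed hair cell markers, which moves all genes alike, 1 member was up in the vestibule and 3 in the cochlea, among 1279 and 7697 of all genes, where the main test gave 2325 and 1711. That scaling moved the median of all genes to -0.53, and library sizes without TMM moved it to 0.13. The replicate number was also used as a block, though whether it pairs the libraries is not known. This block gave 2 members up in the vestibule and 0 in the cochlea, among 1609 and 1009 genes. Under it Tmie (adjusted p = 0.144 by edgeR) and Cib2 (adjusted p = 0.0716 by edgeR) were not called. With 1 library left out, 1 to 3 members were up in the vestibule and 0 to 2 in the cochlea, among 1342 to 2694 and 925 to 1863 genes, the fewest without vestibule replicate 2. The cause was not tested, beyond a tissue then having 2 libraries.

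Cdh23, which reached 0.27 without vestibule replicate 3, turned from 0.04 to -0.48 when scaled to hair cell markers, to -0.22 without cochlea replicate 1 and to -0.19 without vestibule replicate 1. The other 6 members kept their sign under all 14 alternatives. Tmc1 lost its call under 4 alternatives, Cib2 under 5 and Tmie under 9, the last also with limma-voom (adjusted p = 0.0517) and with no filter on low counts (adjusted p = 0.0544 by edgeR), while Lhfpl5 gained one under 2 and Pcdh15 under 1. Without the length correction the mean log2 ratio of Tmc2 to Tmc1 was 0.22 in cochlear and 0.53 in vestibular libraries, beside 0.56 and 0.87 with it. With the exonic bases of GENCODE vM21, a choice made after seeing the data here and for Cib3, it was 1.38 and 1.69. With a library left out it ran from 0.51 to 0.65 in the cochlea and from 0.69 to 0.97 in the vestibule. Cib3 and Ocm could not be tested without a vestibular library, Tmc5 and Pkhd1l1 could not without a cochlear one, and none of these 4 with 1 CPM required in all 6. The counts of Tmc1 and Tmc2, 44 to 86 per cochlear library, limit what can be seen of them.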
